A study of Mus musculus with 6 samples.

Results

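The sites described here were all Lsd1 peaks on mouse chromosome 15 in 3 chromatin immunoprecipitation libraries (ChIP-seq, in which DNA bound by a protein is pulled down with an antibody and sequenced). They were every peak that the deposited peak lists placed on this chromosome. There were 3730 of 43426 peaks in the myogenic library, 1972 of 18893 in the adipogenic library and 2848 of 33533 in the LSD1(OE) library, or 8550 of 95852 in all. The chromosome was picked because its peaks were known to be dense, so its density and peak values are given as a description and no test was made on them.

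The libraries came from C2C12 cells, a mouse myoblast line that forms muscle fibres in low serum and can be steered toward fat-storing cells by an adipogenic cocktail. Wild-type C2C12 cells were collected on day 1 in myogenic medium with 2% horse serum, and wild-type cells on day 1 in the adipogenic cocktail. The LSD1(OE) cells were 1 stable line with a lentiviral, doxycycline-inducible Flag-LSD1, selected with G418, and were collected on day 1 in the same cocktail. These cells received doxycycline before and during differentiation, with none listed for wild-type C2C12, so effects of the transgene, the drug and the line cannot be told apart. All cells were at passages 3 to 5, 1 antibody against the C-terminus of Lsd1 was used throughout, and each ChIP had 1 input library of its own. There was 1 ChIP library per condition and therefore no replicate error, so the 95% Wilson intervals below cover counting error only and a difference between libraries is a difference between those libraries. The 3 ChIP libraries held between 46155625 and 63915769 tags (mapped reads after repeated positions were limited), and the inputs between 81567427 and 100711088.

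Lsd1 (Kdm1a) is an enzyme that removes methyl groups from lysine 4 of histone H3, mostly as part of the CoREST repressor complex, and from lysine 9 in the company of some nuclear receptors. It sits at the promoters of active genes and at enhancers, the distant sites that raise a gene's transcription in particular cell types. Mouse chromosome 15 carries the Hoxc cluster of patterning genes, the type II keratin cluster, the Ly6 family of cell surface proteins, the growth regulator Myc and genes of muscle such as Mb, which encodes the oxygen store myoglobin.

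The reference sequence around the peak summit is shown for 5 sites on chromosome 15. The first 3 were among the strongest peaks and were present in all 3 libraries, the fourth had a peak in the myogenic library alone, and the last lay in a stretch where the background of the LSD1(OE) library was raised. The summit is that of the LSD1(OE) library at the last site and of the myogenic library at the others. At Cdc42ep1 the adipogenic and LSD1(OE) summits lay 1310 and 1166 bp away, outside the sequence shown. At Mir6951 the adipogenic summit, 264 bp away, also lay outside. The letters are RefSeq mm10 (GRCm38.p6), plus strand, and capitals mark matches on either strand to 1 of 8 searched motifs, which are described further on.
Cdc42ep1 distal site, chr15:78832960-78833110, between genes: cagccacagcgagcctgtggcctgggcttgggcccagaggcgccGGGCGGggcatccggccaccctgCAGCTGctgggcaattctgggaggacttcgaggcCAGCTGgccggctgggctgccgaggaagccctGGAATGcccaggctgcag
Mir6951 distal site, chr15:38471049-38471199, between genes: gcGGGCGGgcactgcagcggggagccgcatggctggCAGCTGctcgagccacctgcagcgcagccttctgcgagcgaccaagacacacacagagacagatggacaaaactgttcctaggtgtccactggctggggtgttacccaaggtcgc
Klf10 promoter, chr15:38301340-38301490, just upstream of the gene: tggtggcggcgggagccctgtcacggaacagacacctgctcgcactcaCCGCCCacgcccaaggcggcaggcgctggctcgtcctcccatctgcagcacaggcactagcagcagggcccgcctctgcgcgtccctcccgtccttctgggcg
Mb, chr15:77022228-77022378, in an intron of the gene near an annotated start: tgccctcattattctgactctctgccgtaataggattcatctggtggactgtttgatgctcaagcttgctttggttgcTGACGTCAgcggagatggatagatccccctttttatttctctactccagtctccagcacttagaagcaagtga
Has2 distal site, chr15:56841704-56841854, between genes: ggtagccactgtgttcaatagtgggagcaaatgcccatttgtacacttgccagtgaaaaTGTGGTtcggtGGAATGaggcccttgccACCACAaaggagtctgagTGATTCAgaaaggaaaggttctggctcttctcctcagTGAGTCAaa
The capitals are E-box, GC box and TEAD matches at Cdc42ep1, E-box and GC box matches at Mir6951, and a GC box at Klf10. The Mb window held a CRE match, and the Has2 window held matches to AP-1, RUNX and TEAD motifs.

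Peaks were denser on chromosome 15 than on any other autosome in each of the 3 libraries. There were 37.1 peaks per sequenced Mb in the myogenic library, against 17.1 over the other 18 autosomes, a ratio of 2.17. In the adipogenic library the density was 19.6 per Mb against 7.33, a ratio of 2.67, and in the LSD1(OE) library it was 28.3 against 13.3, a ratio of 2.13. Chromosome 11 came next, at 30.3, 14.3 and 23.7 peaks per Mb in the same order. Chromosome 15 held 8.68% (8.41 to 8.95) of autosomal peaks in the myogenic library, 10.5% (10.1 to 10.9) in the adipogenic library and 8.56% (8.26 to 8.86) in the LSD1(OE) library.

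The number of genes on the chromosome did not rank in the same way. With 963 curated RefSeq genes it carried 9.57 genes per Mb, 11th among the 19 autosomes, against 10.5 over the others. Peaks per gene were 3.87, 2.05 and 2.96 in the myogenic, adipogenic and LSD1(OE) libraries, which is 2.37, 2.92 and 2.33 times the value elsewhere. Together the peaks covered 5.14%, 3.42% and 4.19% of its sequenced bases.

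The background that the peak caller worked against was also higher on chromosome 15. MACS, the caller, compares the tags of a candidate peak with a local rate taken from the input, which is never set below a fixed genome-wide rate, and this local rate was solved here from each peak's tags, length and score. The median local rate over chromosome 15 peaks was 1.11 times the genome-wide rate in the myogenic library, 1.15 times in the adipogenic library and 1.06 times in the LSD1(OE) library, whereas over the peaks of the other autosomes it was 1.00 in each. The rate was more than 2% above the genome-wide rate at 75.7%, 83.5% and 63.3% of chromosome 15 peaks, and the highest shares on any other autosome were 26.5%, 32.8% and 19.8%. Tags over this local rate were no higher on chromosome 15, with medians of 2.09, 1.96 and 1.98 against 2.23, 2.09 and 2.09 on the other autosomes.

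Since the local rate and the density were both raised on chromosome 15, the density was recomputed with the tags scaled down. When the tags of chromosome 15 peaks were divided by their median background relative to the genome-wide rate and peaks under the score limit were dropped, the ratios became 1.79, 2.22 and 1.89 and the chromosome still ranked 1 of 19. The genome-wide rate itself was 1.42 times the mean input per sequenced base, because the caller assumes a smaller genome than the sequenced one. With the division made relative to that mean, 1515 of 3730, 687 of 1972 and 1186 of 2848 peaks were left, the ratios became 0.880, 0.931 and 0.889, and the ranks 11, 10 and 12. The local rate is the highest of several windows, so this second division lies at its upper end. How much of the density came with the background was not tested, and the number of copies of chromosome 15 in these cells was not measured.

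**Figure D1:**
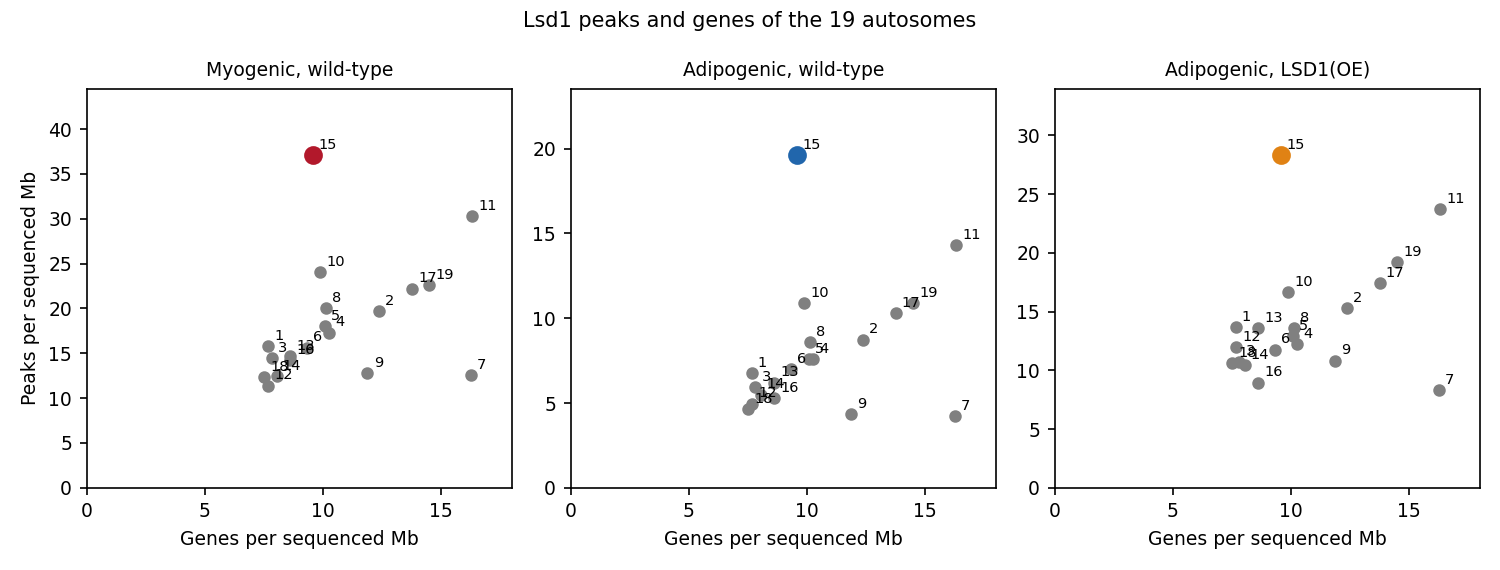
Each point is 1 autosome in 1 library, and the axes give its genes and its Lsd1 peaks per sequenced Mb, with chromosome 15 as a larger coloured point. Chromosome 15 is the highest in all 3 panels, at 37.1, 19.6 and 28.3 peaks per Mb, with 9.57 genes per Mb.

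Along the chromosome, most 5 Mb bins were dense, and a few were nearly empty. Of its 20 bins with at least 50% of their bases sequenced, 17, 16 and 17 had more peaks than the median bin of the other autosomes in the myogenic, adipogenic and LSD1(OE) libraries. The median chromosome 15 bin held 35.4, 17.1 and 24.4 peaks per Mb, against 13.8, 5.41 and 10.8 over 452 bins elsewhere. Among these 20 bins, 10, 12 and 9 lay in the range of the top 10% of the other bins. The local background of the median peak was more than 2% above the genome-wide rate in 17 of 20, 17 of 18 and 14 of 18 chromosome 15 bins that had peaks, against 5 of 452, 5 of 442 and 1 of 444 bins elsewhere.

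The densest bin ran from 75 to 80 Mb and passed every bin of the other autosomes. It held 99.6, 53.4 and 73.0 peaks per Mb, and the highest values elsewhere were 82.0, 45.8 and 69.4. This bin carries 180 genes, of which 118, 91 and 102 had a promoter peak. Those with the highest myogenic scores were Cdc42ep1, which encodes an effector of the small GTPase Cdc42, Scx, the tendon transcription factor scleraxis, and Lgals1, which encodes the lectin galectin-1. Plec, which encodes the linker protein plectin of muscle and skin, lies in it as well.

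Gene content alone did not order the bins. The bin from 55 to 60 Mb holds 36 genes and had 65.8, 41.6 and 57.4 peaks per Mb. Set against bins of like gene number, all 10 chromosome 15 bins with 20 to 49 genes lay above the median of such bins elsewhere in each library, with medians of 31.6, 16.1 and 22.4 against 11.2, 4.60 and 8.90. All 5 bins with 50 or more genes did so too, with medians of 66.0, 39.0 and 54.6 against 25.4, 11.0 and 19.6. Of the 5 bins with under 20 genes only 3, 3 and 2 did so, with medians of 13.6, 2.80 and 1.60 against 3.00, 1.01 and 2.00, so in the LSD1(OE) library the median chromosome 15 bin of this kind was the lower.

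The emptiest bins lay in gene-poor DNA. The bin from 15 to 20 Mb, which holds the neuronal cadherin genes Cdh9 and Cdh10, had 8 peaks in the myogenic library and 0 in the other 2. The bin from 45 to 50 Mb, with the potassium channel gene Kcnv1 and the large gene Csmd3, had 6, 0 and 0. In the bin from 20 to 25 Mb there were 68, 14 and 8 peaks, of which 48, 11 and 3 were distal sites nearest to Cdh18, another cadherin gene. That bin therefore lay close to the median bin of the other autosomes in the myogenic library and below it in the other 2.

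**Figure D2:**
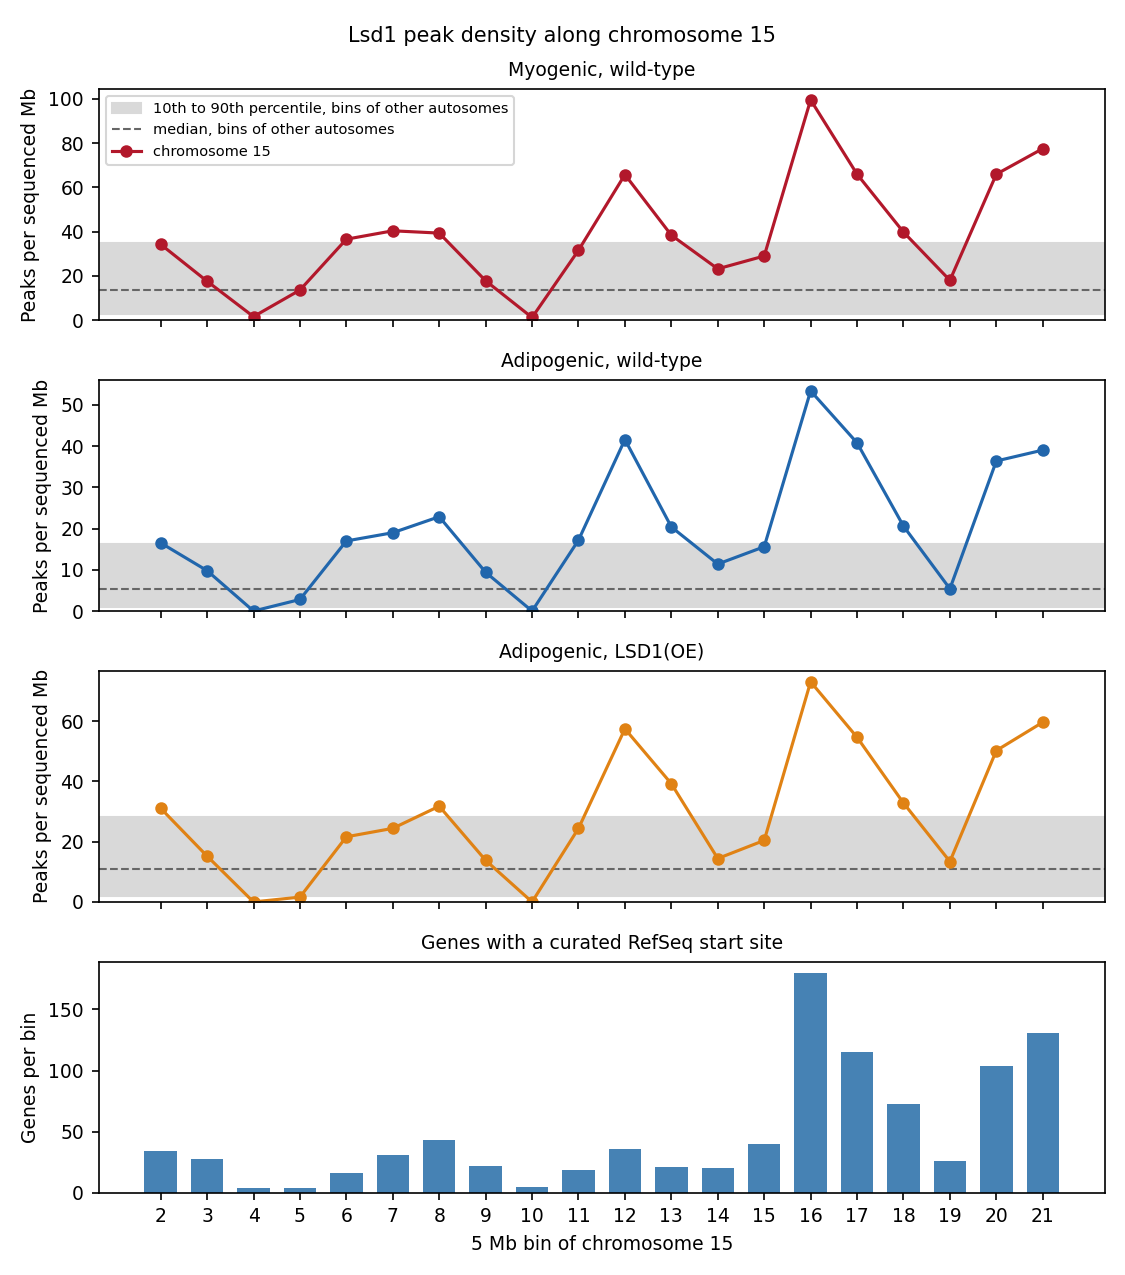
Lsd1 peaks per sequenced Mb are drawn for the 5 Mb bins of chromosome 15 in each library, with the median (dashed) and the 10th to 90th percentiles (grey) of 452 bins of the other autosomes and, in the lowest panel, the genes per bin. The 75 to 80 Mb bin is the highest, at 99.6, 53.4 and 73.0 peaks per Mb, and the bins at 15 to 20 and 45 to 50 Mb are close to 0.

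Peaks on chromosome 15 were also larger. The median peak held 64, 113 and 75 tags in the myogenic, adipogenic and LSD1(OE) libraries, against 54, 82 and 61 elsewhere. The difference was smaller for tag density, which is tags per kb of peak and per 1000000 ChIP tags, with a median of 1.27, 1.22 and 1.19 against 1.21, 1.14 and 1.13. Peaks of 3 kb or more made up 6.43%, 10.2% and 7.76% of the peaks, against 1.66%, 2.00% and 2.31% on the other autosomes. Of the 100 peaks with most tags in each library, 34, 48 and 35 lay on chromosome 15. The tag counts depend on the depth of each library, and the smallest peak called on the chromosome had 27, 39 and 30 tags.

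The peak with most tags on chromosome 15 was a different one in each library. In the myogenic library it lay over the promoter of Plec (chr15:76193981-76208996) with 1934 tags. In the adipogenic library it was a distal peak with 1007 tags (chr15:8800996-8807608), nearest to Slc1a3, which encodes a glutamate transporter. In the LSD1(OE) library it was a peak of 2049 tags over Myc (chr15:61979581-61996255).

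Most chromosome 15 peaks were distal, defined as a peak centre more than 2000 bp from every curated start site. Their share was 82.9% (81.7 to 84.1) in the myogenic library, 74.6% (72.7 to 76.5) in the adipogenic library and 79.2% (77.7 to 80.7) in the LSD1(OE) library. Over the other autosomes the shares were 70.3%, 63.3% and 70.3%, and no other autosome reached those of chromosome 15, the highest being 77.0%, 70.4% and 78.7%. With tags divided by the background relative to the mean input, as above, the chromosome 15 shares of 67.9%, 59.8% and 67.8% lay below those of the other autosomes. That division dropped peaks on chromosome 15 only, and distal peaks had lower scores, so the autosomes were not cut alike. With a false discovery rate of at most 0.1% on every autosome, the shares were 74.0%, 65.3% and 69.6% against 57.9%, 57.2% and 59.9%. The excess over other autosomes was greater for distal peaks, at 2.55, 3.15 and 2.41 times their density elsewhere, than for promoter peaks, at 1.25, 1.85 and 1.49 times. By promoter peaks per Mb the chromosome ranked 4, 2 and 3.

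Distal peaks lay farther from start sites than on the other autosomes, and chromosome 15 peaks of both kinds lay more often in clusters. The median distance to the nearest start was 27280, 25978 and 26793 bp, against 23931, 23582 and 25012 bp elsewhere, and 17.2%, 15.4% and 16.7% lay over 100 kb away, against 11.8%, 10.2% and 12.1%. Some 52.7%, 52.9% and 53.7% fell between genes and 44.2%, 44.6% and 43.6% in introns. Clusters of 5 or more peaks with gaps of at most 10000 bp held 46.8%, 27.2% and 40.7% of all chromosome 15 peaks, against 27.1%, 12.9% and 25.3% elsewhere. Promoter peaks were included. With a fixed gap, a chromosome picked for dense peaks has more peaks in clusters, so this excess is not a separate trait.

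The largest cluster of the myogenic library ran over Pacsin2, Ttll1, Bik, Mcat and Tspo (chr15:83403597-83576164) and held 43 peaks. In the LSD1(OE) library it had 32 peaks (chr15:77779079-77892218) around Myh9, which encodes the heavy chain of a nonmuscle myosin. The adipogenic library had its largest cluster, of 18 peaks, near Mchr1 (chr15:81212371-81302656). Across the Hoxc genes the myogenic library had a cluster of 22 peaks.

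Distal peaks had lower scores than promoter peaks. The score is −10 times the log10 of the caller's p-value, and its median was 104, 108 and 102 for distal peaks against 478, 189 and 246 for promoter peaks. Several distal peaks nonetheless reached the top of the scale, which the caller stops near 3100, so that the strongest peaks cannot be ranked among themselves by score. On chromosome 15, 15, 1 and 9 peaks had a score of 3000 or more.

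Among distal sites, 3 were strong in all 3 libraries. The site upstream of Cdc42ep1, of which the sequence is given above, had 943, 958 and 998 tags in the myogenic, adipogenic and LSD1(OE) libraries, and a score of 3100 in each. The site between Klf10 and Azin1, nearest to the microRNA gene Mir6951, had 801, 744 and 713 tags. The site near Scx, in an intron of the ribosome biogenesis gene Bop1, had 674, 837 and 794 tags. By tag density all 3 sites were highest in the myogenic library, at 2.70, 2.69 and 3.18, and lowest in the adipogenic library, at 2.14, 1.81 and 2.34.

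Other leading distal sites differed more in tags between libraries. The site at -6712 bp from the start of Pacsin2, which encodes a membrane-bending protein, had 1050 tags in the myogenic library, 912 in the adipogenic and 450 in the LSD1(OE) library. A site in an intron of Mtss1, the gene of an actin and membrane binding protein, lay nearest to the start of Ndufb9 and had 270, 490 and 753 tags. These tags follow the depth of the library and the length of the peak as well. By tag density both sites were highest in the myogenic library, at 2.57, 1.98 and 1.88 for Pacsin2 and 2.08, 1.93 and 1.92 for the Mtss1 intron, and without replicates it was not tested whether these differences exceed the spread between samples. The remaining sites among the top 5 lay at -39661 bp from Myh9 (671 tags, myogenic), at -81753 bp from Ywhaz, which encodes a 14-3-3 adaptor protein (579 tags, adipogenic), and at a further intron site of Mtss1 (1087 tags, LSD1(OE)).

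The strongest promoter peaks included those of several regulators. Klf10, a zinc finger factor induced by TGF-β, had 853, 818 and 1059 tags in the myogenic, adipogenic and LSD1(OE) libraries, and its summit in the adipogenic and LSD1(OE) libraries lay 5 and 12 bp from that of the myogenic library. By tag density Klf10 was highest in the myogenic library, at 3.52, against 2.74 and 2.80. In the LSD1(OE) library the densities of Zhx2 (3.02) and Zbed4 (3.39) were higher. Zhx2, a zinc finger and homeobox repressor, had 711, 663 and 575 tags. Both genes were among the top 5 promoters of all 3 libraries.

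Trib1, which encodes a pseudokinase that promotes the breakdown of C/EBP factors, had 625, 808 and 780 tags and was among the top 5 in both libraries with the adipogenic cocktail. By tag density it stood at 2.19, 1.89 and 2.11. The promoter of A4galt, an enzyme of glycolipid synthesis, was among the top 5 of the LSD1(OE) library with 597 tags and had 454 in the myogenic and 677 in the adipogenic library. Its densities in the myogenic, adipogenic and LSD1(OE) libraries were 2.52, 1.64 and 2.73. Tns2, which encodes the focal adhesion protein tensin 2, was among the top 5 of the myogenic library with 777 tags and had 717 and 371 in the adipogenic and LSD1(OE) libraries. The other leading promoters were those of Mir1941 (970 tags, inside the keratin gene Krt80) and Tob2 (703), an inhibitor of cell division, in the myogenic library, Plec (903) and Ptger4 (619), a receptor for prostaglandin E2, in the adipogenic library, and Zbed4 (492) in the LSD1(OE) library.

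**Figure D3:**
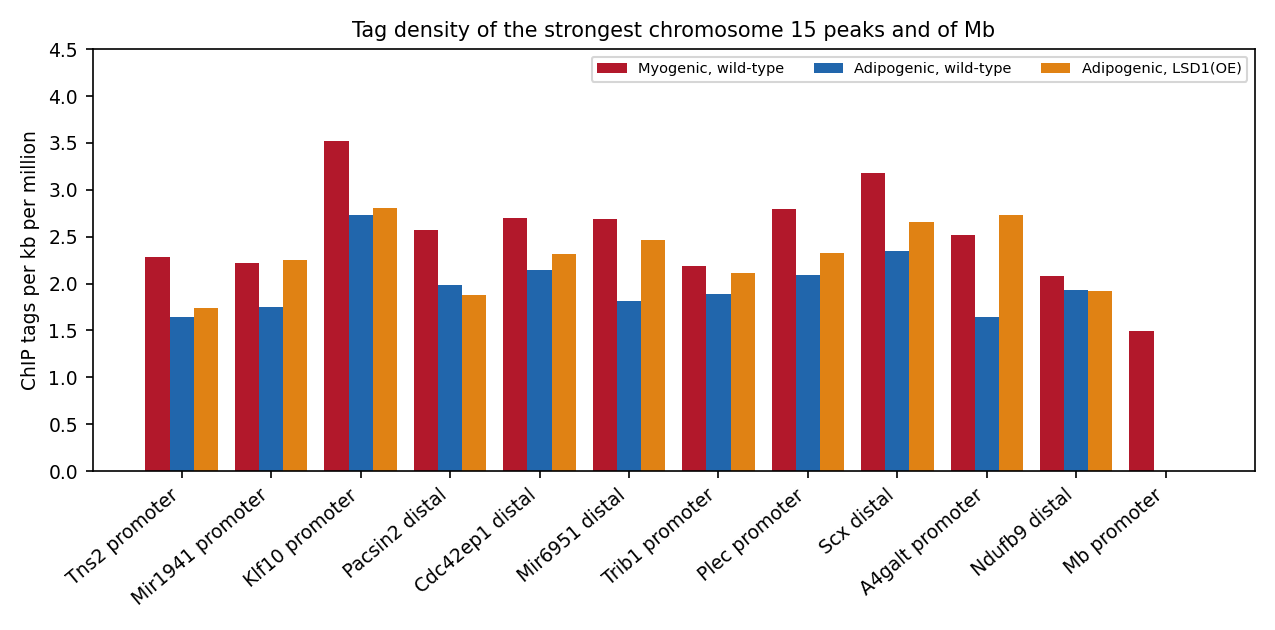
The bars give tag density (tags per kb and per 1000000 ChIP tags) at the strongest promoter and distal sites of chromosome 15 in each library, from 1 library per condition and so without error bars. Among the sites drawn, which leave out Zhx2 and Zbed4, Klf10 is the highest, at 3.52, 2.74 and 2.80, and Mb has a peak in the myogenic library alone.

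A promoter peak was one centred within 2000 bp of a start site, and each peak counted only for the gene with the nearest start. A larger share of the genes of chromosome 15 had such an Lsd1 peak than over the other autosomes. In the myogenic library it was 523 of 963 genes, or 54.3% (51.2 to 57.4), where 40.5% of all genes of the genome had one. In the adipogenic library it was 435, or 45.2% (42.1 to 48.3), against 23.2% of all genes, and in the LSD1(OE) library 486, or 50.5% (47.3 to 53.6), against 32.3%. Chromosome 15 contributed to these background shares and was chosen on the same peaks, so nothing further is read from the excess. With tags divided by the background relative to the mean input, as above, the shares were 46.5%, 27.4% and 37.1%. At a further 59, 53 and 57 genes a peak covered a start site but was not counted for the gene. Its centre lay beyond the window or nearer to the start of another gene. Counting every gene with a start in the window gave shares of 61.2%, 52.1% and 57.2%.

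Promoter peaks in all 3 libraries were found at 370 genes (38.4%), against 19.1% of genes on the other autosomes, and 365 genes (37.9%) had none in any library, against 53.7%. The genes with a peak in all 3 had a higher median observed to expected CpG ratio, 0.710 against 0.273 in those with none. The ratio was taken around the start with the lowest coordinate, which need not be the bound one in genes with several starts.

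Among 15 chromosome 15 genes chosen for muscle, 13, 10 and 12 had a promoter peak in the myogenic, adipogenic and LSD1(OE) libraries. The median score of these peaks was 692, 432 and 505, against 588, 211 and 294 over all chromosome 15 genes with a promoter peak. A peak in all 3 was found at 10 genes, among them Lgals1, Mapk12, the muscle p38 kinase, Fbxo32, which encodes the ubiquitin ligase atrogin-1, and the integrin adaptor Parvb. At Lgals1 there were 505, 466 and 501 tags, and at Mapk12 295, 297 and 297, so that tag numbers barely differed there between libraries of different depth. Fbxo32 had 209, 351 and 215 tags.

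Mb had a promoter peak in the myogenic library alone. Its peak in the myogenic library had 134 tags and a score of 278 (chr15:77021876-77023821), and in the adipogenic and LSD1(OE) libraries the nearest peaks of any kind were 7470 and 5045 bp from a start of the gene. The distal peaks nearest to Mb numbered 14 in the myogenic, 3 in the adipogenic and 7 in the LSD1(OE) library. Peak lists hold only sites past the score limit of 50, so a weaker signal at Mb in the other 2 libraries would not be listed. Smarcd1, a subunit of the BAF remodelling complex, and the activin receptor gene Acvr1b had a peak in the myogenic and LSD1(OE) libraries but not in the adipogenic one. Cpt1b, for the muscle enzyme that admits fatty acids to mitochondria, and Col22a1, for a collagen of muscle ends, had none in any library.

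Of 14 genes of lipid metabolism and fat cell formation, 11, 10 and 11 had a promoter peak (78.6%, 71.4% and 78.6%), with a median score of 1786, 394 and 552. Among all chromosome 15 genes 54.3%, 45.2% and 50.5% had such a peak. Srebf2, the sterol-sensing regulator of cholesterol synthesis, had 488, 493 and 476 tags, and Sqle, an enzyme of that pathway, had 390, 264 and 301. Wnt10b, a ligand that restrains fat cell formation, had 524, 611 and 363 tags, at densities of 1.98, 1.72 and 1.73. Vdr, the vitamin D receptor, had a score of 945 in the myogenic library against 86.5 and 347 in the adipogenic and LSD1(OE) libraries. The weakest members were listed in some libraries only. Pnpla3, a lipase family gene, had a promoter peak in the adipogenic and LSD1(OE) libraries (scores 115 and 57.3), Ppara in the LSD1(OE) library alone (53.5), and Gpd1 and Prlr in the myogenic library alone (142 and 61.1). Scores this near the limit of 50 do not separate presence from absence. In the myogenic library the Pnpla3 start was also covered, and a peak was centred 320 bp from it. That peak was counted for a gene with a nearer start, so Pnpla3 does not differ between libraries in this respect.

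Of 17 ligand and receptor genes, 12, 11 and 12 had a promoter peak (70.6%, 64.7% and 70.6%), with a median score of 688, 422 and 431. Among all chromosome 15 genes 54.3%, 45.2% and 50.5% had such a peak. Pdgfb, the B chain of platelet-derived growth factor, had 278, 267 and 133 tags, and the cytokine receptor gene Lifr had 391, 225 and 294. Rspo2, which encodes an amplifier of Wnt signals, had a peak in the LSD1(OE) library alone (119 tags). Acvrl1, Ccn3 and Celsr1 had none.

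Of 25 transcription factor genes, 20, 19 and 20 had a promoter peak, with a median score of 1037, 214 and 556. Atf4, a factor of the stress response, had 282, 231 and 172 tags. Zfpm2, a partner of GATA factors, had 218, 288 and 264 tags, at densities of 2.20, 1.73 and 1.81. Myc and Hsf1 had promoter peaks in the myogenic and adipogenic libraries. In the LSD1(OE) library a peak covered the start of each but was not counted. At Myc its centre lay 2577 bp away, outside the window. At Hsf1 a peak was centred 158 bp away but counted for a gene with a nearer start. The developmental factor genes Sox10, Grhl2 and Dbx2 had no promoter peak.

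All 13 chromatin genes had a promoter peak in the myogenic library and 11 (84.6%) did in each of the other 2. The shares over all chromosome 15 genes were 54.3%, 45.2% and 50.5%. The median score of the chromatin genes was 749, 198 and 585. The adipogenic median was again close to the 211 of all chromosome 15 genes with a promoter peak. Arid2, a subunit of the PBAF remodelling complex, had 580, 459 and 399 tags. Ep300, the histone acetyltransferase p300, had 270, 65 and 141 tags and scores of 1400, 52.6 and 394, which puts it just inside the limit in the adipogenic library. Kmt2d, which encodes a methyltransferase for the residue that Lsd1 demethylates, had a peak in the myogenic and adipogenic libraries (190 and 114 tags) and not in the LSD1(OE) library. Brd1 had one in the myogenic library alone (45 tags).

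Gene families at 1 locus differed widely. Over all chromosome 15 genes the shares with a promoter peak were 54.3%, 45.2% and 50.5%. Of 9 Hoxc genes, 6, 4 and 6 had a promoter peak (66.7%, 44.4% and 66.7%). Hoxc9, Hoxc10, Hoxc11 and Hoxc13 had one in all 3 libraries. At Hoxc13 there were 361, 358 and 426 tags, at densities of 2.51, 1.95 and 2.13. Hoxc5 and Hoxc8 had none. Of 27 keratin genes, which are active in epithelia, 1, 2 and 3 had a promoter peak (3.70%, 7.41% and 11.1%). Krt8 alone was counted in all 3 libraries (69, 115 and 67 tags). The start of Krt80 was also covered in all 3 libraries, by peaks centred 643, 1561 and 1244 bp away. Those peaks were counted for Mir1941, whose start was nearer. Of 14 Ly6 genes, 8, 4 and 5 had a promoter peak (57.1%, 28.6% and 35.7%), with Ly6a, a marker of progenitor cells, Ly6c1 and Ly6e in all 3. The Ly6 genes are close copies of each other, so reads could have been placed at the wrong member. Among 5 cadherin genes, of which all but Cdh6 lie between 15 and 25 Mb, Cdh18 had a promoter peak in all 3 libraries and the other 4 had none.

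**Figure D4:**
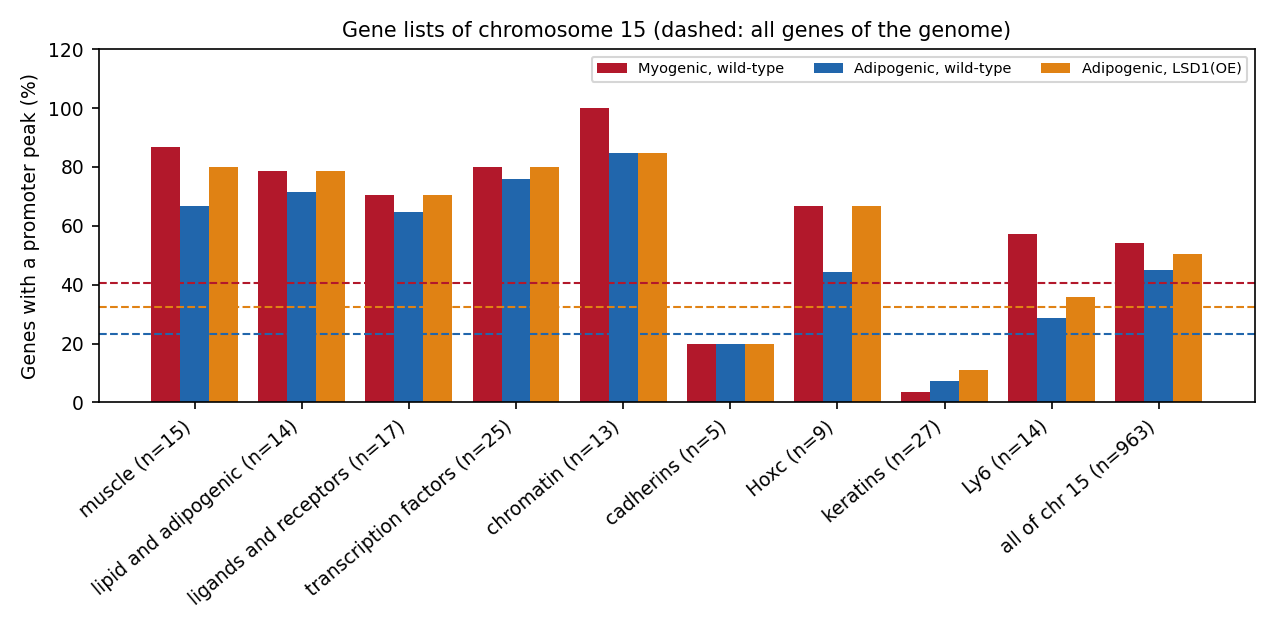
Bars give the share of genes with an Lsd1 promoter peak in each list and over all 963 genes of chromosome 15, and dashed lines give the share over all genes of the genome (40.5%, 23.2% and 32.3%). Chromatin genes reach 13 of 13 in the myogenic library, while keratin genes stay at 1, 2 and 3 of 27.

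Merging overlapping peaks of the 3 libraries gave 4839 regions on chromosome 15, of which 1106 (22.9%, 21.7 to 24.1) had a peak in all 3. Over all autosomes 20.7% did. Regions of the myogenic library alone made up 35.3%, regions of the LSD1(OE) library alone 20.1%, and regions of the adipogenic library alone 6.05% (5.42 to 6.76), against 35.8%, 20.9% and 3.49% on the other autosomes. Regions shared by the myogenic and LSD1(OE) libraries only were 8.06%, against 12.6% elsewhere. The 3-library regions were distal in 63.0% of cases on chromosome 15, against 53.3% elsewhere.

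Taken as shares of each list, 41.6% of myogenic peaks overlapped an adipogenic peak and 77.7% of adipogenic peaks overlapped a myogenic one. For the LSD1(OE) library, 60.1% of its peaks overlapped a myogenic and 49.7% an adipogenic peak. The shares of overlap with the adipogenic list were above those of the other autosomes (35.1% of myogenic and 41.5% of LSD1(OE) peaks). Adipogenic peaks themselves overlapped the other lists less often than elsewhere, at 77.7% against 80.9% for the myogenic and 69.8% against 75.1% for the LSD1(OE) list. In the 75 to 80 Mb bin, 178 of 595 regions had a peak in all 3 libraries, while in the bin from 20 to 25 Mb 1 of 78 did.

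In regions of all 3 libraries, tag density was lower in the adipogenic than in the myogenic library, with a median log2 difference of -0.32, and this was -0.34 on the other autosomes. LSD1(OE) against myogenic the median was -0.27 on chromosome 15 and -0.20 elsewhere. LSD1(OE) against adipogenic it was 0.06 and 0.14. These comparisons share libraries, and with 1 ChIP per condition no difference in binding is read from them.

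In the LSD1(OE) library, 3 stretches of chromosome 15 had a higher local background than in the other 2 libraries, a pattern found after the values were seen. They were located as runs in which the running median over 5 peaks was at least 1.4 times the genome-wide rate. From 55001839 to 55668887, over Deptor, which encodes an inhibitor of mTOR, and the collagen gene Col14a1, the median background was 1.75 in the LSD1(OE) library, 1.20 in the myogenic and 1.33 in the adipogenic library. From 56055508 to 56856690, around the hyaluronan synthase gene Has2, it was 1.68, 1.25 and 1.26 in the same order. From 61880353 to 63672394, over Myc and the noncoding gene Pvt1, it was 1.68, 1.21 and 1.28. Beside the Myc stretch the medians were 1.00, 1.12 and 1.07, so there the LSD1(OE) value fell back to the genome-wide rate. Beside the Deptor stretch they were 1.11, 1.10 and 1.18. Beside the Has2 stretch, which lies close to the first, they were 1.39, 1.13 and 1.25, so the LSD1(OE) value stayed raised there.

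Elsewhere in the genome the same rule found only short stretches of repeated genes, namely 1 on chromosome 4, 1 on chromosome 8 and 1 on chromosome 12, of 31.5 to 85.2 kb against 667 to 1792 kb on chromosome 15. In windows of 1 Mb the highest median background was 1.72 on chromosome 15 and 1.39 on any other autosome in the LSD1(OE) library. Chromosome 15 was not the higher in the myogenic library, at 1.24 against 1.37, or in the adipogenic library, at 1.293 against 1.298. The caller takes the background from the input library, and the cause of the stretches was not tested.

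Peaks in these stretches were large in the LSD1(OE) library. In the stretch over Myc there were 130 peaks with a median of 142.5 tags, against 84 peaks with 61.5 in the myogenic and 60 peaks with 137 in the adipogenic library. The peak over Myc spanned 16675 bp, with 2049 tags, and had a score of 699 against a background of 3.07 times the genome-wide rate. In the myogenic and adipogenic libraries the Myc promoter had 607 and 743 tags and scores of 2655 and 968. Those peaks were shorter, at 5718 and 5583 bp. More tags thus went with a lower score at Myc in the LSD1(OE) library. The background of 3.07 was solved from the tags, length and score of that same peak, so it is not a separate measurement. Leaving the 3 stretches out, chromosome 15 still ranked 1 of 19 for density, with ratios of 2.14, 2.60 and 2.05.

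**Figure D5:**
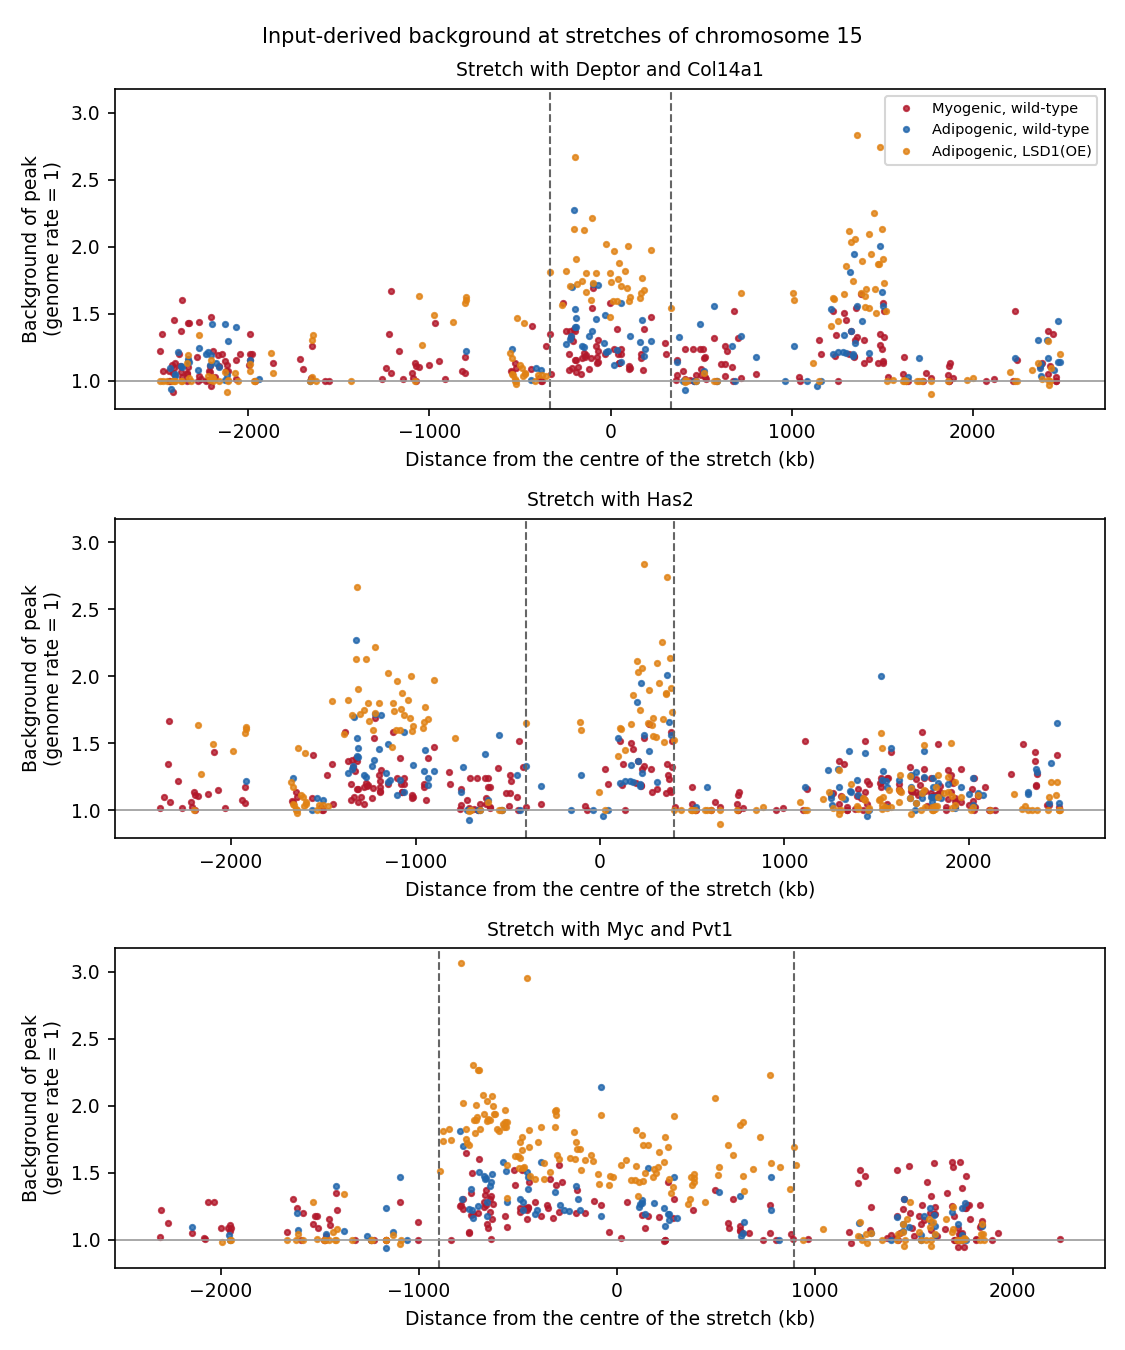
The local background at each peak relative to the genome-wide rate is drawn against distance from the centre of each stretch in kb, with dashed lines at its ends and 1 point per peak. In the LSD1(OE) library the medians in the stretches are 1.75, 1.68 and 1.68, against 1.20 to 1.33 in the other libraries.

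The sequence at the summits differed between distal and promoter peaks. The motifs were searched on both strands in windows of 301 bp centred on the summits, and compared with 334389 windows of the same length tiled over chromosome 15. Their letters were TGANTCA for AP-1, CAGCTG for an E-box of the kind that myogenic factors bind, GGGCGG for the GC box of Sp factors, TGTGGT for RUNX, GGAATG for TEAD, TGACGTCA for the CRE, CTA and TAG with 4 bases between them for MEF2 and TTGCNNAA for C/EBP, and the matches of different motifs were allowed to overlap.

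AP-1 letters were in 20.2%, 23.2% and 19.8% of distal windows in the myogenic, adipogenic and LSD1(OE) libraries, against 8.99% of all chromosome 15 windows. The E-box was in 26.6%, 30.2% and 25.4%, against 11.0%. Both shares were below those of distal peaks on the other autosomes, which were 24.3%, 27.9% and 22.8% for AP-1 and 28.8%, 35.0% and 29.0% for the E-box. The GC box was in 48.3%, 49.8% and 47.0% of promoter windows and 6.17%, 7.75% and 7.18% of distal windows, against 3.04% of all windows. On the other autosomes it was in 54.6%, 56.5% and 53.2% of promoter and 8.32%, 9.95% and 7.98% of distal windows.

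The RUNX, TEAD, MEF2 and C/EBP motifs stood closer to the level of all windows in distal peaks than AP-1 and the E-box did. RUNX letters were in 29.3%, 28.3% and 25.6% of distal windows against 20.0%, TEAD in 19.8%, 17.3% and 18.9% against 16.0%, MEF2 in 5.04%, 4.89% and 4.08% against 5.10%, and C/EBP in 12.4%, 14.1% and 14.8% against 13.8%. The CRE found in the Mb window was rare, in 1.57%, 1.4% and 0.677% of 636, 500 and 591 promoter windows, against 0.163% of all windows. In distal windows it was in 0.549%, 0.476% and 0.576%. Promoter windows of the other autosomes held it more often, in 2.21%, 2.17% and 1.96%. Base composition differed as well, with a median GC content of 48.2%, 48.8% and 48.8% in distal and 60.5%, 59.8% and 60.1% in promoter windows against 41.9% in all windows, and its part in these shares was not tested. A match gives the letters and not a bound factor.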

How the data were processed

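Lsd1 ChIP-seq and input DNA of C2C12 cells were analysed, 1 ChIP and 1 input per condition. Per the labels, reads were aligned with Bowtie2 and peaks called with MACS 1.41, while the deposited file headers name MACS 1.4.2. Per the file headers, each ChIP was called alone against its own input at a p-value limit of 1e-05 with an effective genome of 1870000000 bp. The deposited peak lists give a raw tag count, a score (−10 log10 of p), a fold over local background (a ratio) and a false discovery rate in percent, all made by the authors. The BED files hold the same peaks and were not used.

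Members and gene lists were chosen with earlier results of these data known. Peaks were assigned by their centre to the curated RefSeq gene (mm10) with the nearest start site, so that no peak counted for more than a single gene. Density per sequenced Mb was counted by autosome and in 5 Mb bins, with Wilson 95% intervals, which cover counting error. The local background was solved from tags, length and score under the Poisson model of the caller, which reads the input in windows of 1000 and 10000 bp. Peaks that overlapped between libraries by at least 1 bp were merged. Named were, per library, the genes of the 5 promoter peaks and the 5 distal peaks with the highest score, genes of the densest and emptiest bins, and the list members. Genes of the largest clusters, of the peaks with most tags and of the stretches of raised background were named after their values were seen. Python 3.11.15, NumPy 2.4.6, SciPy 1.17.1, pandas 2.3.3 and matplotlib 3.10.9 were used, and the scripts were checked on simulated data. With 1 library per condition no test was made.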

Additional observations from a re-analysis of the deposited data

How the results depend on the processing

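The density ratio of chromosome 15 (2.17, 2.67 and 2.13 in the myogenic, adipogenic and LSD1(OE) libraries) stayed above 1 under every alternative but 1, and ranked 1 of 19 under all others for which ranks were computed (not for the whole chromosome length). It was 2.93 (adipogenic) at a false discovery rate of at most 0.1%, 2.85 (adipogenic) at a score of 100 or more, 1.79, 2.22 and 1.89 with tags divided by the background, 2.05 (LSD1(OE)) without the 3 stretches, and 0.880, 0.931 and 0.889, ranks 11, 10 and 12, with tags divided by the background over the mean input. The last 3 alternatives were chosen after seeing the data. The local background and the bin medians stayed within their interval or spread under each alternative run.

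The share of genes with a promoter peak was 48.8%, 34.8% and 38.8% at the strict false discovery rate, 49.1%, 37.0% and 41.8% at a score of 100 or more, 46.0% (myogenic) and 41.8% (LSD1(OE)) with equal numbers of peaks, 49.5% and 42.6% in the same 2 with scores divided by the factor that scaled up the ChIP tags, 43.3%, 34.2% and 39.6% with all RefSeq genes, 61.2%, 52.1% and 57.2% with every gene in the window, 48.1%, 41.3% and 45.5% within 1000 bp, 62.0%, 51.0% and 57.6% within 5000 bp, and 46.5%, 27.4% and 37.1% with tags divided by the background over the mean input.

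The distal share was 74.0%, 65.3% and 69.6% at the strict false discovery rate, against 57.9%, 57.2% and 59.9% on the other autosomes. It was 75.1%, 67.4% and 71.6% at a score of 100 or more, against 58.7%, 58.2% and 61.8%. With equal numbers it was 70.1% (myogenic) and 71.8% (LSD1(OE)), against 53.5% and 61.9%. With such scores it was 75.6%, 72.0% and 72.9%, against 59.3%, 61.5% and 62.6%. It was 77.2%, 69.2% and 73.3% with all RefSeq genes, and 73.2%, 65.1% and 69.4% beyond 5000 bp. With chromosome 15 tags divided by the background it was 80.5% (myogenic) and 71.5% (adipogenic), and 67.9%, 59.8% and 67.8% over the mean input. These last values lay below the undivided 70.3%, 63.3% and 70.3% of the other autosomes.

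Regions in all 3 libraries were 31.2% at the strict false discovery rate, 31.1% at a score of 100 or more, 33.3% with equal numbers, 32.0% with such scores, 25.7% with tags divided by the background and 30.7% over the mean input. No paired analysis was possible because each condition had 1 library and no test was made. Leaving out a replicate was not possible for the same reason. Depth limits the weakest peaks, since libraries differ in tags and peaks under the score limit are not listed.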
